A study of Mus musculus with 10 samples.

Results

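Neuronal genes were followed through the differentiation of mouse embryonic stem cells toward lung epithelium. The set held 10 genes that are widely used to recognise neurons: Tubb3, Dcx, Map2, Stmn2, Snap25, Nefl, Nefm, Elavl3, Elavl4 and Syt1. Each was read from the probe sets annotated to that symbol alone, 26 probe sets in all, and its main value came from whichever of them was brightest on average. All 10 genes were measured, among 18193 genes in all. No filter on low values was applied, so none of the 10 was left out.

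Expression was measured on 10 Affymetrix arrays, 1 per condition, with RNA from C57BL/6 embryonic stem cells (mESCs) at day 8, 17 or 24 of differentiation. At days 17 and 24 the cultures had received KGF with DCI, DCI alone, KGF alone, or neither (control), and at day 8 they had received KGF or neither. KGF is keratinocyte growth factor, a mitogen of epithelial cells. The labels do not spell out DCI, which is read here as dexamethasone with agents that raise cAMP, from the title of the series. All groups shared the strain and the stem cell origin. No label names a sort, and markers of muscle, macrophages and epithelium changed along with the neuronal genes, so each array is treated as a mixture of cell types. In such bulk RNA, fewer neurons and less of the RNA in each neuron cannot be told apart.

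Values are log2 expression values from RMA, on which a difference of 1 is a 2-fold change. RMA values have no true zero, and levels of different probe sets are not comparable, so levels are compared between arrays and not between genes. Where values of several probe sets or genes are summed, averaged or correlated, the same ones are used on every array. With single arrays, differences were tested in limma with additive terms for day, KGF and DCI over the 10 arrays, or with 1 interaction added over the 8 arrays of days 17 and 24. A gene passed at a Benjamini-Hochberg adjusted p under 0.05 over the 18193 genes. Errors are standard errors (SE) of that fit, and its p-values measure only the departure of single arrays from it. Signal at the 3′ end exceeded that at the 5′ end by more in the untreated day 8 culture than on any other array. There the Actb probe sets differed by 1.05 (3′ minus 5′ end), and elsewhere by 0.459 to 0.62. For Gapdh the difference was 0.438 there and -0.02 to 0.115 elsewhere. For dap, another control on the arrays, it was 4.80 there and 1.35 to 2.68 elsewhere. Whether the RNA itself or its later handling differed was not tested.

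The 10 genes cover different parts of a neuron. Tubb3, Map2 and Dcx encode a tubulin and microtubule-associated proteins, and Dcx marks young, migrating neurons. Stmn2 encodes a growth cone protein that destabilises microtubules. Nefl and Nefm encode the light and medium neurofilament chains, which fill and widen the axon. Elavl3 and Elavl4 encode neuronal RNA-binding proteins that stabilise and splice target mRNAs. Snap25, a SNARE protein, and Syt1, the calcium sensor of vesicle fusion, act together in transmitter release. In embryonic stem cell cultures neurons arise readily by default when signals for mesoderm and endoderm are weak, and differentiated cultures often hold some.

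Promoter sequences were available in the RefSeq table (build GRCm38.p6) for 6 of the 10 genes, as 11 windows of 250 bases before and 50 after an annotated start. They are shown because these genes moved together between day 8 and day 17. Capitals mark matches on either strand to the E-box CAGCTG or CAGATG, letters bound by proneural factors, and to TGACG, the core of a cAMP response element. The Tubb3 window lies at chr8:123411303-123411602 on the plus strand, the Elavl3 window at chr9:22051974-22052273 on the minus strand, and the Elavl4 window, 1 of 4 for that gene, at chr4:110287478-110287777 on the minus strand.
Tubb3: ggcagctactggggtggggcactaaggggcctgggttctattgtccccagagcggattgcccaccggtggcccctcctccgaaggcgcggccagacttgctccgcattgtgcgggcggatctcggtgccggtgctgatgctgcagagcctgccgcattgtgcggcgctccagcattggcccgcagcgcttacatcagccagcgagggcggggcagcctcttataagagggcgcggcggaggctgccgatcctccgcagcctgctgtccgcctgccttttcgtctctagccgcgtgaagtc
Elavl3: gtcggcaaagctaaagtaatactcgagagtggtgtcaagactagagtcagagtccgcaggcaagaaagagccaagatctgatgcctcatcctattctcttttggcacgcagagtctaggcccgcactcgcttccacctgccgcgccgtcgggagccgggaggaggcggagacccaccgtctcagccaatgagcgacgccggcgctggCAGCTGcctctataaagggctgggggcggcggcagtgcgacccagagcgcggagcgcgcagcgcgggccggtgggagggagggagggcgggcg
Elavl4: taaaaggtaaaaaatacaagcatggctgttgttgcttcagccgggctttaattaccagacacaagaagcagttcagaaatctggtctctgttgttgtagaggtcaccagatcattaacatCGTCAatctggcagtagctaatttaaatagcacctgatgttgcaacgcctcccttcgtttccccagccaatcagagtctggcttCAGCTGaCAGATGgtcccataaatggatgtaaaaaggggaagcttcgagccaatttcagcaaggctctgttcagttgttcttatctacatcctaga
The Elavl3 window held 1 match, CAGCTG at -43 from the start. The Elavl4 window held CAGCTG at -46 and CAGATG at -39, and the reverse complement of TGACG at -130. Of the Elavl4 windows not shown, 1 overlaps the printed window and held the same 3 matches. Another held only a match to TGACG, at -57, and another only a match to CAGATG, at -101. The Tubb3 window held none, nor did the windows of Map2 and Dcx, and 1 of the 2 Syt1 windows held CAGCTG. Over all 32817 windows of that length, 16.3% held CAGCTG, 17.2% held CAGATG and 20.8% held TGACG. The letters alone do not show that a factor binds there.

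All 10 genes were higher at day 17 than at day 8, with the 4 arrays of day 17 above both arrays of day 8 for each of them. Of all genes, 26.5% lay above without overlap in this way and 29.4% below. In the additive fit 9 of the 10 rose and none fell, where 21.4% of all genes rose, 21% fell and 42.4% passed either way, and the median difference of the 10 was 1.77, against -0.02 for all genes. At day 24, 9 of the 10 still lay above both day 8 arrays on all 4 arrays and none lay below, where 30.4% of all genes lay above and 32% below. Nefl was the exception.

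The microtubule genes gave some of the largest of these differences. Dcx read 3.13 with KGF and 3.27 in the control at day 8. At day 17 Dcx read 6.25 with KGF and DCI, 6.17 with DCI, 6.21 with KGF and 6.02 in the control. These 4 values lay close together and far above day 8, and the rise was 3.09 ± 0.23 (8.53-fold, adjusted p = 1.68e-06). The day 8 values of Dcx were dim, at percentiles 9.33 with KGF and 11.05 in the control among all genes. Tubb3 read 4.89 with KGF and 4.91 in the control at day 8. At day 17 Tubb3 read 7.45 with KGF and DCI, 6.91 with DCI, 7.03 with KGF and 6.93 in the control. It rose by 2.32 ± 0.31 (adjusted p = 0.000132), and the culture with both treatments was the highest of all 10 arrays. Map2 read 5.17 with KGF and 5.26 in the control at day 8. At day 17 Map2 read 7.57 with KGF and DCI, 7.41 with DCI, 7.29 with KGF and 6.91 in the control. Its rise was 2.06 ± 0.22 (adjusted p = 2.85e-05), and the 3 treated cultures of day 17 lay above the control of that day.

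The neurofilament genes rose as well. Nefm read 3.22 with KGF and 3.27 in the control at day 8. At day 17 Nefm read 5.87 with KGF and DCI, 5.33 with DCI, 4.65 with KGF and 5.47 in the control. The difference was 2.17 ± 0.38 (adjusted p = 0.000843), with a wider spread among the day 17 cultures than for Dcx. Nefl read 6.62 with KGF and 6.90 in the control at day 8. At day 17 Nefl read 8.23 with KGF and DCI, 8.22 with DCI, 8.39 with KGF and 8.62 in the control. It rose by 1.92 ± 0.20 (adjusted p = 2.12e-05), and the control was the highest of the 10 arrays for this gene.

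The RNA-binding protein genes rose by smaller amounts. Elavl4 read 5.59 with KGF and 5.57 in the control at day 8. At day 17 Elavl4 read 7.28 with KGF and DCI, 6.91 with DCI, 6.81 with KGF and 7.39 in the control. The rise was 1.56 ± 0.21 (adjusted p = 0.000121). For Elavl3 the values were 5.29 with KGF and 5.35 in the control at day 8. At day 17 Elavl3 read 6.56 with KGF and DCI, 6.30 with DCI, 6.28 with KGF and 6.15 in the control, a rise of 0.94 ± 0.16 (adjusted p = 0.000832). Both genes thus separated the days with no overlap, Elavl3 by less than 2-fold.

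Among the vesicle fusion genes Snap25 rose and Syt1 did not pass. Snap25 read 3.71 with KGF and 3.55 in the control at day 8. At day 17 Snap25 read 5.50 with KGF and DCI, 5.51 with DCI, 5.07 with KGF and 4.54 in the control. The rise of 1.32 ± 0.36 (adjusted p = 0.0125) did not pass without the day 8 control array (1.08, adjusted p = 0.132) or without the day 17 KGF array (1.16, adjusted p = 0.0526). Syt1 read 5.32 with KGF and 4.90 in the control at day 8, and 6.08 with KGF and DCI, 5.48 with DCI, 5.87 with KGF and 5.52 in the control at day 17. Its difference of 0.67 ± 0.25 missed the threshold (adjusted p = 0.0532) and passed without the day 17 control (adjusted p = 0.046), the day 24 KGF (adjusted p = 0.0484) or the day 24 DCI array (adjusted p = 0.0449). Stmn2 read 6.61 with KGF and 7.16 in the control at day 8. At day 17 Stmn2 read 10.34 with KGF and DCI, 10.82 with DCI, 8.57 with KGF and 8.70 in the control. Even the cultures without DCI lay above day 8, and the day difference, with DCI accounted for, was 1.62 ± 0.16 (adjusted p = 1.72e-05).

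**Figure D1:**
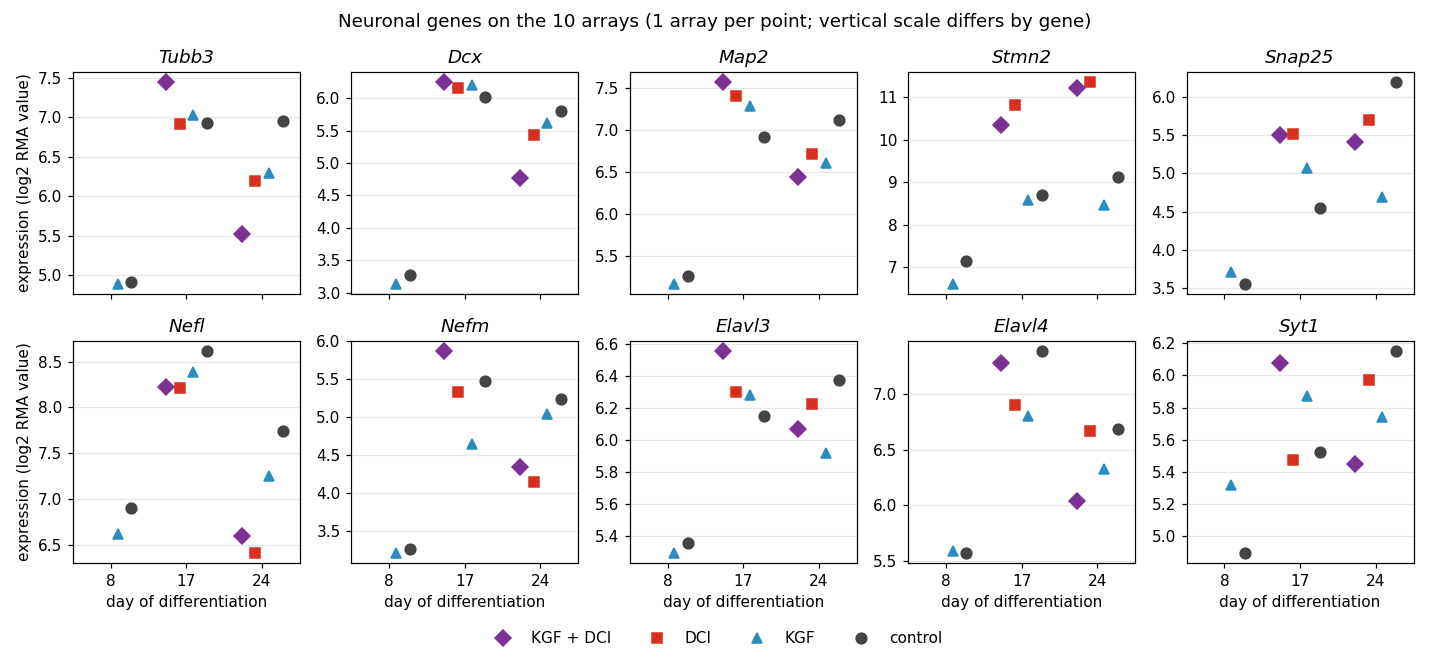
Expression of the 10 neuronal genes (vertical axis, log2 RMA value, scale differing by gene) against day of differentiation, with 1 point per array and the treatments as symbols (KGF with DCI, DCI, KGF and control, from left to right within a day). All 10 genes were lower at day 8 than at day 17, and the Stmn2 points with DCI, from 10.34 to 11.35, stood above those without it, up to 9.12.

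The other probe sets of these genes showed the rise in part. Of the 16 other probe sets, 8 stayed under log2 4 on every array, a level picked after the values were seen. The main values of Dcx, Nefm and Snap25 also lay under this level on both day 8 arrays. Dim values are compressed, so the sizes of the rises of these genes are uncertain. For the 9 genes that rose, 6 of 13 other probe sets passed in the same direction and 3 had the opposite sign. The second Nefl probe set rose by 3.11, the second Stmn2 probe set by 1.72, and the other Elavl4 probe sets by 2.93 and 1.30, and 1 of the 2 for Elavl3 rose by 1.43. Of the other Dcx probe sets, 1 rose by 1.26, and the other differences were 0.25 and 0.22 and did not pass. The 3 other Map2 probe sets stood at 0.50, -0.03 and -0.11 and the second Snap25 probe set at -0.01, none of them past the threshold. The Tubb3 and Nefm results rest on a single probe set each.

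**Figure D2:**
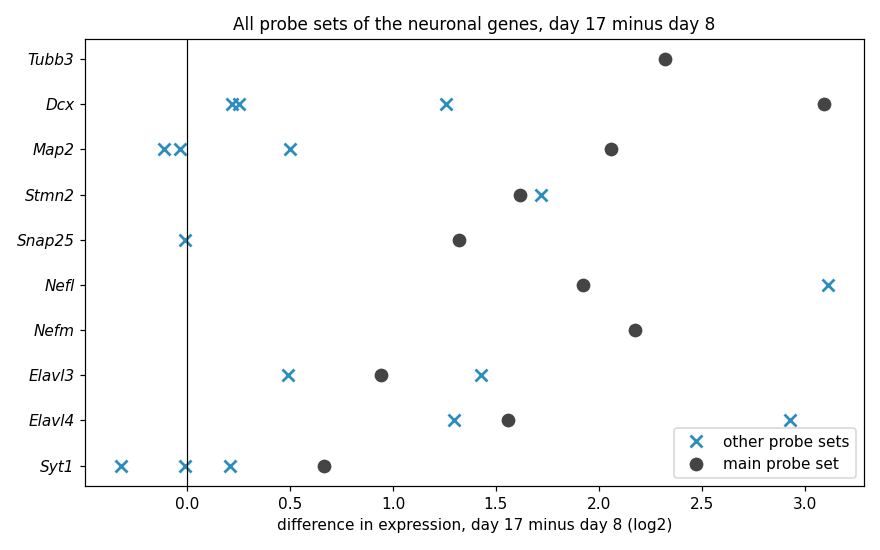
Difference in expression between day 17 and day 8 (horizontal axis, log2, additive limma fit) for each of the 26 probe sets, with the main probe set of a gene as a filled circle and its other probe sets as crosses. The 2 Stmn2 probe sets lie close together, at 1.62 and 1.72, while those of Map2 spread from -0.11 to 2.06.

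Other genes of neurons and their precursors moved less uniformly over the same interval, when 21.4% of all genes rose and 21% fell. These lists, like the members, were chosen with earlier results known. Of 25 other genes of the neuronal cytoskeleton and of adhesion, 9 rose and 2 fell (median 0.36), among them the adhesion molecules Chl1 (2.78 ± 0.25, adjusted p = 7.70e-06) and Thy1 (2.05 ± 0.15, adjusted p = 1.59e-06). The axonal microtubule protein gene Mapt rose by 0.83 ± 0.26 (adjusted p = 0.0235). Of 16 measured genes of the synaptic vesicle and its fusion, 2 rose and 2 fell (median -0.02), and the vesicle glycoprotein gene Sv2a fell by 1.35 ± 0.18. Of 11 other neuronal RNA-binding protein genes 4 rose and 2 fell (median 0.28). Celf4 rose by 1.08 ± 0.20, while Elavl2, the close relative of Elavl3 and Elavl4, was at 0.51 ± 0.20 and did not pass (adjusted p = 0.0589).

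Among genes of neural progenitors and neurogenic transcription factors, some rose and some fell by day 17, when 21.4% of all genes rose and 21% fell. Of 16 measured progenitor genes 11 rose and 1 fell (median 0.60). Fabp7, a lipid-binding protein of radial glia, read 4.54 with KGF and 4.95 in the control at day 8, against 8.83 with KGF and DCI, 8.27 with DCI, 8.44 with KGF and 8.62 in the control at day 17. It rose by 3.96 ± 0.24 (adjusted p = 3.02e-07). Of 24 measured neurogenic factors 11 rose and 4 fell (median 0.30), with the proneural factor Neurog2 higher by 0.95 ± 0.19 and the zinc finger factor St18 by 1.83 ± 0.29, while Sox11 fell by 1.01 ± 0.17. Genes of mitosis and replication fell in 10 of 10 cases, and genes of macrophages rose in 12 of 12. The summed level of the 12 macrophage genes lay between log2 12.29 and 13.84 at day 17 and between 8.52 and 8.72 at day 8, and that of the 14 muscle genes between 12.93 and 14.07 and between 12.25 and 12.48. Their part in the neuronal differences was not tested.

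Between day 17 and day 24 the neuronal genes moved in both directions. In the additive fit 5 of the 10 fell (Tubb3, Dcx, Map2, Nefl and Elavl4) and 1 rose (Stmn2). Of all genes 22.5% fell and 14.8% rose, 37.3% in all. The median difference of the 10 was -0.61, against -0.01 for all genes. Without the day 24 array with both treatments, 3 members passed, all of them lower. The rise of Stmn2 was 0.43 ± 0.12 (adjusted p = 0.0206). That call was lost when probe sets were averaged and without any 1 of 5 arrays, those with DCI (with or lacking KGF) at days 17 and 24 and the control at day 24, with adjusted p between 0.0511 and 0.0776. Of the 10 other probe sets of these 6 genes, 2 passed in the same direction and 4 had the opposite sign.

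Nefl gave the largest fall. At day 24 it read 6.59 with KGF and DCI, 6.41 with DCI, 7.25 with KGF and 7.74 in the control, and all of these lay below its day 17 values. The fall was 1.36 on the log2 scale (SE 0.15, 2.58-fold, adjusted p = 7.28e-05). With DCI, these readings lay below both day 8 arrays (6.62 and 6.90). The second Nefl probe set fell by 1.19, but stayed above its day 8 values, with 5.99 with KGF and DCI and 5.91 with DCI at day 24 against 4.75 with KGF and 4.66 in the control at day 8.

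Dcx and Elavl4 were the other genes whose day 24 arrays all lay below those of day 17. For these 3 of 10 genes the days did not overlap, where 18.8% of all genes were lower without overlap and 11% higher. Dcx read 4.77 with KGF and DCI, 5.43 with DCI, 5.62 with KGF and 5.80 in the control at day 24, and fell by 0.76 (SE 0.17, adjusted p = 0.00633). Elavl4 read 6.04 with KGF and DCI, 6.67 with DCI, 6.33 with KGF and 6.69 in the control, and fell by 0.67 (SE 0.16, adjusted p = 0.00688). In both genes the culture with both treatments was the lowest of day 24.

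Tubb3 read 5.52 with KGF and DCI, 6.19 with DCI, 6.30 with KGF and 6.95 in the control at day 24. The control stood at its day 17 level while the treated cultures were lower, and the fall of 0.84 on the log2 scale (SE 0.23, adjusted p = 0.0172) was not called without the array with both treatments at day 24 (adjusted p = 0.0513). Map2 read 6.44 with KGF and DCI, 6.71 with DCI, 6.60 with KGF and 7.12 in the control. Map2 fell by 0.58 (SE 0.17, adjusted p = 0.0209), a call that was lost without any 1 of 6 arrays, namely KGF, DCI and both treatments at days 17 and 24 (adjusted p between 0.0526 and 0.0791). The mean of all Map2 probe sets was at -0.09 (adjusted p = 0.665) and that of all Dcx probe sets at -0.16 (adjusted p = 0.212), so that neither passed when probe sets were averaged.

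Nefm read 4.34 with KGF and DCI, 4.15 with DCI, 5.04 with KGF and 5.23 in the control at day 24. Its overall difference from day 17 was -0.64 ± 0.29 (adjusted p = 0.106), and without the day 17 KGF array it was -0.99 (adjusted p = 0.00542). Elavl3 read 6.07 with KGF and DCI, 6.23 with DCI, 5.92 with KGF and 6.37 in the control. Syt1 read 5.45 with KGF and DCI, 5.97 with DCI, 5.74 with KGF and 6.15 in the control. Both genes were highest in the control of that day. Snap25 read 5.41 with KGF and DCI, 5.70 with DCI, 4.69 with KGF and 6.20 in the control, and its control was the highest of the 10 arrays. The differences from day 17 were -0.17 ± 0.12 for Elavl3, 0.09 ± 0.19 for Syt1 and 0.34 ± 0.27 for Snap25, and none passed (adjusted p = 0.301, 0.737 and 0.359).

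In the fit with a DCI by day interaction, 7 of the 10 genes passed between days 17 and 24 with DCI, 6 lower and Stmn2 higher, and 1, Nefl, passed without DCI, where it was lower. Of all genes 22.1% fell and 12% rose with DCI (34.1% in all), and 15.8% fell and 11.8% rose without it (27.5% in all). The arrays of the days did not overlap for 7 genes lower and 1 higher with DCI, against 37% and 29.8% of all genes. Without DCI that held for 3 lower (Dcx, Nefl and Elavl4) and 0 higher, against 33.8% and 28%. With DCI the falls were 1.72 for Nefl, 1.35 for Nefm, 1.32 for Tubb3, 1.11 for Dcx, 0.91 for Map2 and 0.74 for Elavl4, given as log2 sizes, with adjusted p from 1.78e-05 to 0.0222. Without DCI the same genes differed by -1.01, 0.08, -0.36, -0.41, -0.24 and -0.59. Of the 6, Map2, Nefm and Elavl4 did not pass without the day 17 array with both treatments (adjusted p = 0.0642, 0.0608 and 0.26), which left 4 called, and Map2 and Elavl4 did not pass without the day 24 array with both (adjusted p = 0.0514 and 0.186). With probe sets averaged Dcx and Map2 did not pass (adjusted p = 0.407 and 0.248), nor did Elavl4 without the mean trend or after a second normalisation (adjusted p = 0.0562 and 0.0645). Of the 10 other probe sets of the 7 genes called with DCI, 3 passed in the same direction and 4 had the opposite sign. Another Elavl4 probe set passed as lower without DCI (-0.52, adjusted p = 0.0254 in limma). For the main Elavl4 probe set without DCI, a call was gained when either day 17 array with DCI was left out. Its estimate stayed unchanged at -0.59 in those runs, so only the estimated error differed. Snap25 without DCI was higher by 1.43 when the day 24 KGF array was left out. The difference between the falls with and without DCI is the DCI by day interaction, for which none of the 10 passed, so these falls were not shown to differ. Nefm came nearest, at -1.43 ± 0.38 (adjusted p = 0.0932), with a 95% confidence interval from -2.28 to -0.58 that is not adjusted over genes.

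**Figure D3:**
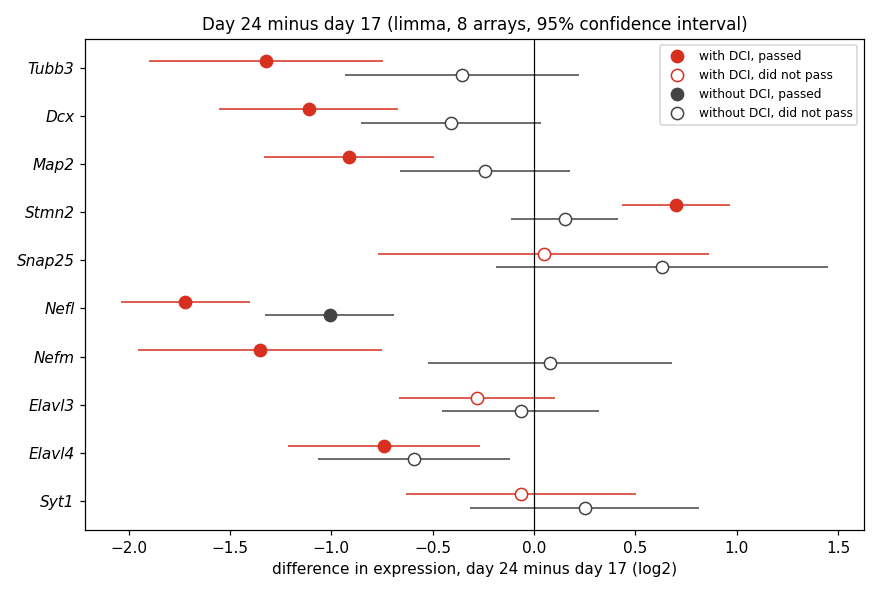
Difference between day 24 and day 17 (horizontal axis, log2) for each gene, with DCI (upper mark) and without DCI (lower mark), as limma estimates from 8 arrays with 95% confidence intervals, filled where the gene passed. With DCI 6 genes were lower and Stmn2 was higher, and without DCI only Nefl passed, lower by 1.01.

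Over these days, when 37.3% of all genes passed, the other neuronal lists moved in both directions. Of the 24 neurogenic factors 8 fell and 1 rose, with St18 lower by 1.18 ± 0.22, Neurog2 by 0.86 ± 0.14 and Sox11 by 0.75 ± 0.13. Of the 16 progenitor genes 5 fell and 1 rose. Fabp7 fell by 1.06 ± 0.18 (adjusted p = 0.00104), and Prom1, also an epithelial surface protein, rose by 0.98 ± 0.14. Of the 25 other cytoskeletal and adhesion genes 6 rose and 4 fell, among them Thy1 (0.81 ± 0.11) and Mapt (0.67 ± 0.19) higher and Uchl1, a neuronal ubiquitin hydrolase, lower (-0.67 ± 0.22). Of the 16 vesicle genes 5 rose and 2 fell, with Syn1 higher by 0.39 ± 0.12 and Vamp2 by 0.42 ± 0.12. Elavl2 fell by 1.36 ± 0.15. All 10 mitosis genes fell again, with a median of -1.58, and 10 of 14 muscle genes rose, and the part of either in the neuronal differences was not tested.

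DCI raised Stmn2 and lowered Nefl in the additive fit, and the other 8 genes did not pass. DCI called 15.4% of all genes, 7.27% higher and 8.09% lower, so that 2 of 10 is near the background share. At day 17 Stmn2 read 10.34 with KGF and DCI and 10.82 with DCI, against 8.57 with KGF and 8.70 in the control. At day 24 Stmn2 read 11.20 with KGF and DCI and 11.35 with DCI, against 8.46 with KGF and 9.12 in the control. All 4 arrays with DCI thus lay above all 6 without it. The difference was 2.22 ± 0.12 (4.64-fold, adjusted p = 2.43e-06), the 22nd highest of the 18193 genes, and it passed under every alternative run, between 1.85 and 2.34. It was 1.94 ± 0.12 at day 17 and 2.49 ± 0.12 at day 24 (adjusted p = 7.24e-06 and 8.03e-07).

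The second Stmn2 probe set showed the same pattern with smaller differences. At day 17 it read 8.98 with KGF and DCI and 9.43 with DCI, against 8.06 with KGF and 8.02 in the control. At day 24 it read 9.71 with KGF and DCI and 9.93 with DCI, against 7.60 with KGF and 8.43 in the control. DCI raised it by 1.48 (adjusted p = 0.000161), with no overlap between arrays with and without DCI on either day.

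Stmn2 was thus apart from the other genes of the set. Over the 8 arrays of days 17 and 24, its correlation with the mean of the other 9, each scaled to its own spread, was -0.26, where those of Tubb3, Map2, Elavl3 and Dcx were 0.92, 0.93, 0.88 and 0.81. Those of Elavl4, Nefm, Nefl, Syt1 and Snap25 were 0.74, 0.65, 0.56, 0.34 and 0.16. These are descriptions over 8 arrays that share the days and the treatments. The 95% confidence interval of the DCI difference was 1.94 to 2.49 for Stmn2, and none of the other 9 had an upper bound above 1.01, that of Snap25.

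Markers of macrophages and epithelium moved with DCI. Of all genes 5.63% were higher and 4.01% lower with DCI at day 17, and 7.99% and 11.4% at day 24. At day 17, 11 of 12 macrophage genes were lower with DCI and 1 was higher, and the summed level was log2 12.29 to 12.50 with DCI and 13.83 to 13.84 without it. At day 24, 11 were lower, with 11.86 to 12.07 with DCI and 13.75 to 14.04 without it. These sums follow the brightest genes. The median DCI difference of the 12 macrophage genes was larger, at -2.04 at day 17 and -3.44 at day 24. Of 12 epithelial genes, 8 were higher at day 17, and 11 higher and 1 lower at day 24. Of 13 measured genes of neuroendocrine secretion, some of which neurons share, none was higher and 1 was lower at day 17, and 1 was higher and 2 were lower at day 24. The counts of this neuroendocrine list are near the shares of all genes. The summed level of that list was 10.91 to 11.03 with DCI and 11.32 to 11.34 without it at day 17, and 11.03 to 11.20 with DCI and 11.69 to 11.79 without it at day 24. Cpe, a granule processing gene that makes up much of that sum, fell by 0.63 ± 0.07 with DCI in the additive fit and read 10.49 to 10.68 with DCI and 11.07 to 11.09 without it at day 17. Over both days 2 genes of the list were higher with DCI and 1 was lower, where 7.27% and 8.09% of all genes were. The list median was 0.08, so the median and the sum differ in sign. The part of these lists in the Stmn2 difference was not tested.

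Nefl was lower with DCI by 0.64 on the log2 scale (SE 0.15, adjusted p = 0.017), a call that was lost without the day 24 control (-0.48, adjusted p = 0.0555) or the day 24 array with both treatments (-0.64, adjusted p = 0.0503). At day 24 alone the difference was -0.99 ± 0.14 (1.99-fold, adjusted p = 0.000955), with the 2 DCI arrays at 6.41 and 6.59 and those without DCI at 7.25 and 7.74. At day 17 it was -0.28 ± 0.14 (adjusted p = 0.303). The second Nefl probe set gave -0.85 at day 24 and passed (adjusted p = 0.00692).

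At day 24 DCI changed 3 of the 10 genes, Stmn2 higher and Nefl and Nefm lower, where 7.99% of all genes were higher and 11.4% lower (19.4% in all). Arrays with and without DCI did not overlap for Stmn2, higher, and for Tubb3, Dcx, Nefl and Nefm, lower, against 25% and 28.7% of all genes. Nefm differed by -0.89 ± 0.27 (adjusted p = 0.0445), a call that was lost without any 1 of the 4 day 24 arrays (adjusted p from 0.102 to 0.254) and under 4 other settings (adjusted p from 0.0527 to 0.0972). Tubb3 was at -0.77 ± 0.26 (adjusted p = 0.0673) and Dcx at -0.61 ± 0.20 (adjusted p = 0.0583). In both genes the arrays with DCI lay below those without it. Without the day 24 DCI array these values were -1.10 (adjusted p = 0.049) and -0.96 (adjusted p = 0.0127). Without the day 24 KGF array Tubb3 was at -1.09, and with a robust prior Dcx passed (adjusted p = 0.0461). Tubb3 gained a call without either day 17 array with DCI, and Dcx without either day 17 array lacking DCI. Those runs left the estimates unchanged at -0.77 and -0.61, so only the estimated error differed.

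At day 17 DCI changed Stmn2 alone among the 10, where 9.64% of all genes passed, 5.63% higher and 4.01% lower. Map2, Stmn2, Snap25 and Elavl3 were higher without overlap and Nefl was lower, against 24.8% and 25.4% of all genes. Snap25 read 5.50 and 5.51 with DCI, against 5.07 with KGF and 4.54 in the control, a difference of 0.70 ± 0.37 that did not pass (adjusted p = 0.325). Over both days Snap25 passed for DCI without the day 24 control array (0.78, adjusted p = 0.0127). Nefm was 0.54 ± 0.27 higher (adjusted p = 0.299), and 1.04 higher without the day 17 control array, where it passed (adjusted p = 0.0301). For Elavl4 the difference of the main probe set was -0.01 ± 0.21, with a 95% confidence interval from -0.48 to 0.47. The other Elavl4 probe sets stood higher, at 0.44 ± 0.14 and 0.65 ± 0.22, and did not pass in limma (adjusted p = 0.105 and 0.119).

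**Figure D4:**
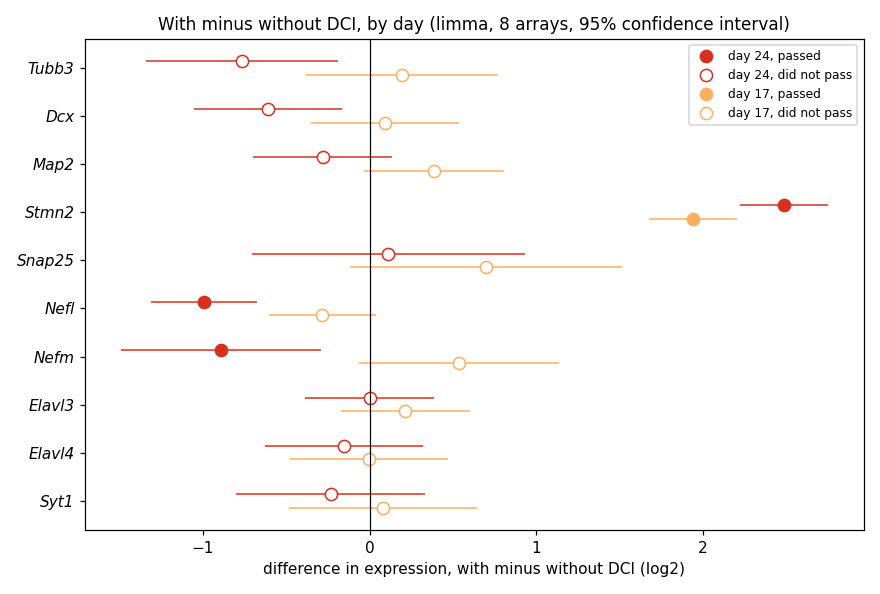
Difference between arrays with and without DCI (horizontal axis, log2) for each gene at day 24 (upper mark) and day 17 (lower mark), as limma estimates from 8 arrays with 95% confidence intervals, filled where the gene passed. Stmn2 stands at 2.49 and 1.94, and Nefl and Nefm passed at day 24 only, at -0.99 and -0.89.

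The DCI difference was lower at day 24 than at day 17 for 9 of the 10 genes, with a median interaction of -0.63 against -0.01 for all genes, but none of the 10 passed, where 2.51% of all genes did (0.533% higher, 1.97% lower) and 2912 had an unadjusted p under 0.05 in limma. Tubb3 was at -0.96 ± 0.37, Nefl at -0.71 ± 0.20, Dcx at -0.70 ± 0.28 and Map2 at -0.67 ± 0.27, with adjusted p of 0.23, 0.113, 0.255 and 0.253. Without the day 17 control array Nefm passed at -1.93 (adjusted p = 0.0123), and without the day 24 control array Stmn2 passed at 0.75 (adjusted p = 0.0386). Among the listed neurogenic factors, St18 (-1.13 ± 0.21, adjusted p = 0.0235) and Onecut1 (-0.85 ± 0.18, adjusted p = 0.0463) passed for the same interaction, both in the negative direction.

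KGF changed none of the 10 genes past the threshold in the additive limma fit, where 1 gene passed among all 18193 (0.0055%) and 1466 had an unadjusted p under 0.05. The largest difference was -0.39 ± 0.11 for Stmn2 (adjusted p = 0.389). Its main probe set read lower with KGF in each of the 5 pairs of arrays that differ only in KGF. The second Stmn2 probe set did not, with 8.06 with KGF against 8.02 in the control at day 17. How many of all genes keep one direction over these pairs was not counted. The KGF by DCI and KGF by day interactions passed for none of the 10 and for none of the 18193 genes (267 and 932 genes at an unadjusted p under 0.05).

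The KGF pairs of day 24 lay in one direction for most of the genes. Without DCI all 10 were lower with KGF than in the control of day 24, with a median of -0.47 and values from -1.51 for Snap25 to -0.18 for Dcx, where 45.9% of all genes were below 0. With DCI 8 of the 10 were lower with KGF added, with a median of -0.27, where 49.2% of all genes were below 0. At day 17 KGF was above its pair for 6 of 10 genes without DCI and for 8 of 10 with DCI, with medians of 0.12 and 0.21. Of all genes, 49.4% and 51.2% were below 0 in these pairs. Taking DCI and its absence together, KGF arrays lay above the others at day 17 for Tubb3, Dcx and Syt1 and below for 0 genes (15.4% and 13.4% of all genes). At day 24 they lay below for Map2, Snap25, Elavl3, Elavl4 and Syt1 and above for 0 (14.5% and 14.7%). The pairwise differences are between single arrays with no replicate check. The day 24 control array also enters the DCI comparison.

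Set against the untreated culture of its day, the culture with KGF and DCI had 8 of the 10 genes higher at day 17 (median 0.46) and 9 of the 10 lower at day 24 (median -0.74), where 49.2% and 52% of all genes were below 0. Stmn2 was the exception at day 24, higher by 2.09, and was higher by 1.64 at day 17. Tubb3 was lower by 1.43 at day 24, the largest fall. These differences between single arrays were not tested.

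The 6 other genes whose profile over the 10 arrays was most like the mean profile of the set were Fabp7 (r = 0.97), Tmem41a (0.97), Fabp5 (0.97), Clec4d (0.96), Apoa2 (0.96) and Cym (0.96), among 3530 genes bright and variable enough to be ranked. Fabp7 is on the progenitor list, and the others are on none of the neuronal or neural lists. Cym, for example, read 3.89 in the control and 4.02 with KGF at day 8, and 12.18 to 12.87 at day 17. A place in this ranking thus does not mark a gene as neuronal. The ranking is a description over 10 arrays that share their days and treatments.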

How the data were processed

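Values for 45101 probe sets on 10 Affymetrix arrays were deposited by the authors on the log2 scale. The submitters' processing notes name RMA, and the labels name Bioconductor. This method corrects background, normalises between arrays and summarises probes, so a shift of most genes would be removed and dim genes are compressed. For its version, for joint normalisation of the arrays and for a genome build, nothing is given in the sources used here. Of the probe sets, 34945 had 1 symbol (18193 genes), 932 several, 9160 none, and 64 were controls. Each gene took its brightest probe set on average.

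Fits were made with limma 3.58.1 in R 4.3.3 with a mean trend, after a test on simulated data. Additive terms were day, KGF and DCI (10 arrays), and interactions were added 1 at a time on 8 arrays. Each condition has 1 array, so p-values measure departure from the fit, and the number of arrays limits the precision. Figures used matplotlib 3.10.9. Members and gene lists were chosen with earlier results of these data known. Named were all 10 members, up to 4 genes per list with the largest differences among those passing for DCI at either day, DCI by day or day 24 against day 17, and the 6 most similar profiles. Alternatives were other variance priors, removal of the dimmest 40% of genes, averaged probe sets, a second quantile normalisation, other thresholds, fewer arrays and each array left out. A further one fitted every probe set separately and read the main ones.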

Additional observations from a re-analysis of the deposited data

How the results depend on the processing

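No member's called difference changed sign under any alternative run. Those runs read the main probe set of a gene or the mean of all its probe sets. Other probe sets of called members had the opposite sign in 3 of 13 cases for day 17 against day 8. For day 24 against day 17 that held for 4 of 10 in the additive fit, and for 4 of 10 with DCI. The count of members called for DCI was 2, and 1 when a 2-fold size was also required. For day 24 against day 17 it was 6, and 3 with averaged probe sets and 1 at 2-fold. For DCI at day 24 it was 3, and 5 at an adjusted p under 0.10 and 1 at 2-fold. For day 24 against day 17 it was 1 without DCI, and 2 under 0.10, and it was 7 with DCI, and 4 at 2-fold. For DCI by day it was 0, and 1 under 0.10. Leaving out each array gave 1 to 2 for DCI, 0 for KGF, 8 to 10 for day 17 against day 8, 3 to 6 for day 24 against day 17, 0 to 1 for DCI by day, 1 to 2 for DCI at day 17, 2 to 4 for DCI at day 24, 1 to 2 without and 4 to 7 with DCI for day 24 against day 17, and 0 for the KGF interactions. Of the members' single differences under these alternatives, 36 lost their call, 19 gained one and 1561 stayed on the same side of the threshold. The cause was not tested. Counts over all 18193 genes also moved when 1 array was left out. They ran from 1638 to 2834 for DCI, from 0 to 65 for KGF and from 5298 to 6835 for day 24 against day 17. With all 10 arrays these counts were 2793, 1 and 6778, and the member counts are to be read beside them. No paired analysis was possible because each condition has a single array and the labels number no replicates.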

Other observations

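Of 19 genes that set the transmitter of a neuron, 2 rose and 1 fell between day 8 and day 17, when 42.4% of all genes passed. Gad1, which makes GABA, rose by 1.41 ± 0.35 (adjusted p = 0.00714) by day 17 and by a further 0.90 ± 0.26 (adjusted p = 0.0207) by day 24. At day 17 it read 4.57 with KGF and DCI, 4.485 with DCI, 4.35 with KGF and 4.188 in the control. At day 24 it read 4.55 with KGF and DCI, 6.05 with DCI, 4.64 with KGF and 5.94 in the control. The further rise thus lay mostly in the cultures without KGF. The vesicular monoamine transporter gene Slc18a2 fell by 3.62 ± 0.13 (adjusted p = 6.09e-09) by day 17. With DCI at day 24 the serotonin transporter gene Slc6a4 was lower by 1.21 on the log2 scale (-1.21 ± 0.19, adjusted p = 0.00140).

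Of 14 measured genes of glia and neural crest, 5 rose and 2 fell by day 17, when 21.4% of all genes rose and 21% fell. The water channel gene Aqp4, which is also expressed in lung and stomach epithelium, rose by 3.33 ± 0.30 (adjusted p = 7.82e-06) by day 17 and by 2.64 ± 0.23 (adjusted p = 1.46e-05) between day 17 and day 24. Tfap2b, a neural crest factor, rose by 1.73 ± 0.21 by day 17 and fell by 0.79 ± 0.16 by day 24. DCI lowered the endothelin receptor gene Ednrb by 1.19 on the log2 scale (-1.19 ± 0.10, adjusted p = 2.96e-05).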
